A study of Mus musculus with 15 samples.

Results

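Krüppel-like factors (Klf) are zinc-finger transcription factors that bind GC-rich and CACCC-type DNA. The 7 genes described are Klf2, Klf3, Klf4, Klf5, Klf6, Klf9 and Klf10. They were taken by name from the array's platform annotation, each through its probe set with exactly 1 gene symbol, and are 7 of 19937 genes measured. The choice of these 7 was made with earlier results of these data known. Counts of the 7 set beside all genes are therefore descriptions. Each of the 7 had 1 such probe set. The arrays were of the Affymetrix single-channel kind, and the values are log2 signals per probe set that the authors had computed with RMA, a method that corrects background and scales all arrays to one distribution.

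The cells were mouse embryonic stem (ES) cells of a single line, adapted to culture in 2i, the pair of kinase inhibitors CHIR99021 and PD0325901. All 5 groups carry the same knock-in of a biotin and 3xFLAG tag at Ctnnb1, the gene of beta-catenin, and the biotin ligase BirA (Ctnnb1-BioFLneo;BirA). CHIR99021 inhibits GSK3, the kinase that marks beta-catenin for degradation, and PD0325901 blocks MEK, which acts directly upstream of ERK. The 2iLIF group was kept long term in 3 µM CHIR99021, 1 µM PD0325901 and the cytokine LIF. The 2i group kept both inhibitors and lost LIF for 24 h. The CHIR group kept only CHIR99021, the PD03 group kept only PD0325901, and the DMSO group kept neither, each after 24 h without LIF and the omitted inhibitors. The DMSO, CHIR, PD03 and 2i groups are thus single-time withdrawals, and 2iLIF is a steady culture. Each group has 3 arrays. The labels do not say whether these came from separate cultures, so a p-value here reflects the variation among 3 arrays a group, which may be no more than technical.

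In mouse ES cells Klf2, Klf4 and Klf5 are known as overlapping supports of the naive state, in which cells self-renew without signs of differentiation. Klf4 is a known target of LIF through STAT3, and Klf2 protein is known to be destabilised by ERK. Klf3 represses genes through CtBP corepressors. Klf9 and Klf10 recruit the Sin3a corepressor, Klf10 was named for its rapid induction by TGF-beta, and Klf6 is a widely expressed gene with a rapid response to growth signals.

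Of the 7 genes, 5 have a promoter in the RefSeq table used here (GRCm38.p6), which gives 250 bases before and 50 bases after the start site. The last 150 bases before the start site are shown for 3 genes with unlike responses. Klf2 and Klf4 both rose with either inhibitor, and Klf6 rose with PD0325901 and fell with CHIR99021. The stretches are written 5′ to 3′ on the strand of the gene, at chr8:72318912-72319061 (plus strand) for Klf2, chr4:55532476-55532625 (minus strand) for Klf4 and chr13:5861339-5861488 (plus strand) for Klf6. Capitals mark matches to the motifs searched.
Klf2: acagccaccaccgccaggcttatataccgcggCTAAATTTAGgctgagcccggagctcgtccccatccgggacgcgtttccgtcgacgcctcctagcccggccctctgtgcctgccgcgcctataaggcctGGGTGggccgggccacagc
Klf4: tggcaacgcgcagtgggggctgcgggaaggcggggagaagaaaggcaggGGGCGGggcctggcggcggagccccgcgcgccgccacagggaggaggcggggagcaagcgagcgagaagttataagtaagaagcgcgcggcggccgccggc
Klf6: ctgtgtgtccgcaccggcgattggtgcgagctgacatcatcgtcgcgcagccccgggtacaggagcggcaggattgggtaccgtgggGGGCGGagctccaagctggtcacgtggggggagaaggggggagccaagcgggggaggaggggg

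The 6 motifs were searched on both strands of the whole 300-base windows, after some of the sequences had been seen. The MEF2 motif, searched by its consensus, matched CTAAATTTAG in Klf2, beginning at position -118 from the start site, and is held by 3.19% of 32851 promoters of that length. The GC box GGGCGG was found in Klf2, Klf3, Klf4 and Klf6 and is in 35.7% of all promoters. CACCC, which reads GGGTG on the other strand, was found in Klf2, Klf3 and Klf9 and is in 57.5% of all promoters. The STAT motif TTCNNNGAA, in 8.3% of promoters, matched in Klf9 (TTCTGCGAA), and the TCF/LEF motif CTTTGA, in 16% of promoters, matched in Klf6, downstream of the start site. The CArG box, in 1.63% of promoters, matched in none of the 5 windows, which says only that these letters are not there. The 5 windows hold 1 overlap between matches of different motifs. Their GC content was 63 to 76.7%, against a median of 52.7% over all promoters.

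The series as a whole bears on these genes in a few ways. The array medians lay between 6.98 and 7.06. Known targets of the 3 pathways were measured: the Wnt target Axin2 rose by 1.45 ± 0.08 (SE) in CHIR minus DMSO, the ERK target Dusp6 fell by 1.72 ± 0.06 in PD03 minus DMSO, and the STAT3 target Socs3 rose by 1.64 ± 0.08 in 2iLIF minus 2i. Dusp6 also fell by 0.65 ± 0.06 in CHIR minus DMSO, with an interaction of 0.60 ± 0.08, and Socs3 fell by 0.41 ± 0.08 in 2i minus DMSO. Of markers of ES cells, 8 were measured and their mean per array lay between 11.52 and 11.74. The mean of 8 fibroblast markers lay between 6.27 and 6.47, below the array medians, and that of 7 extra-embryonic endoderm markers between 6.49 and 6.66. The highest gene of each of these lists lay above the medians. Its group means ran from 7.58 to 7.77 for Col1a1 and from 7.45 to 7.80 for Gata4. A gene passed a comparison when its limma p, adjusted over all 19937 genes, was under 0.05. Differences are log2 values of the first group minus the second, given with their standard error, and the words rose and fell describe that difference, not a course over time. Levels of different Klf genes are not set against each other, since their probes differ. For the same reason the marker means are only a rough guide.

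**Figure D1:**
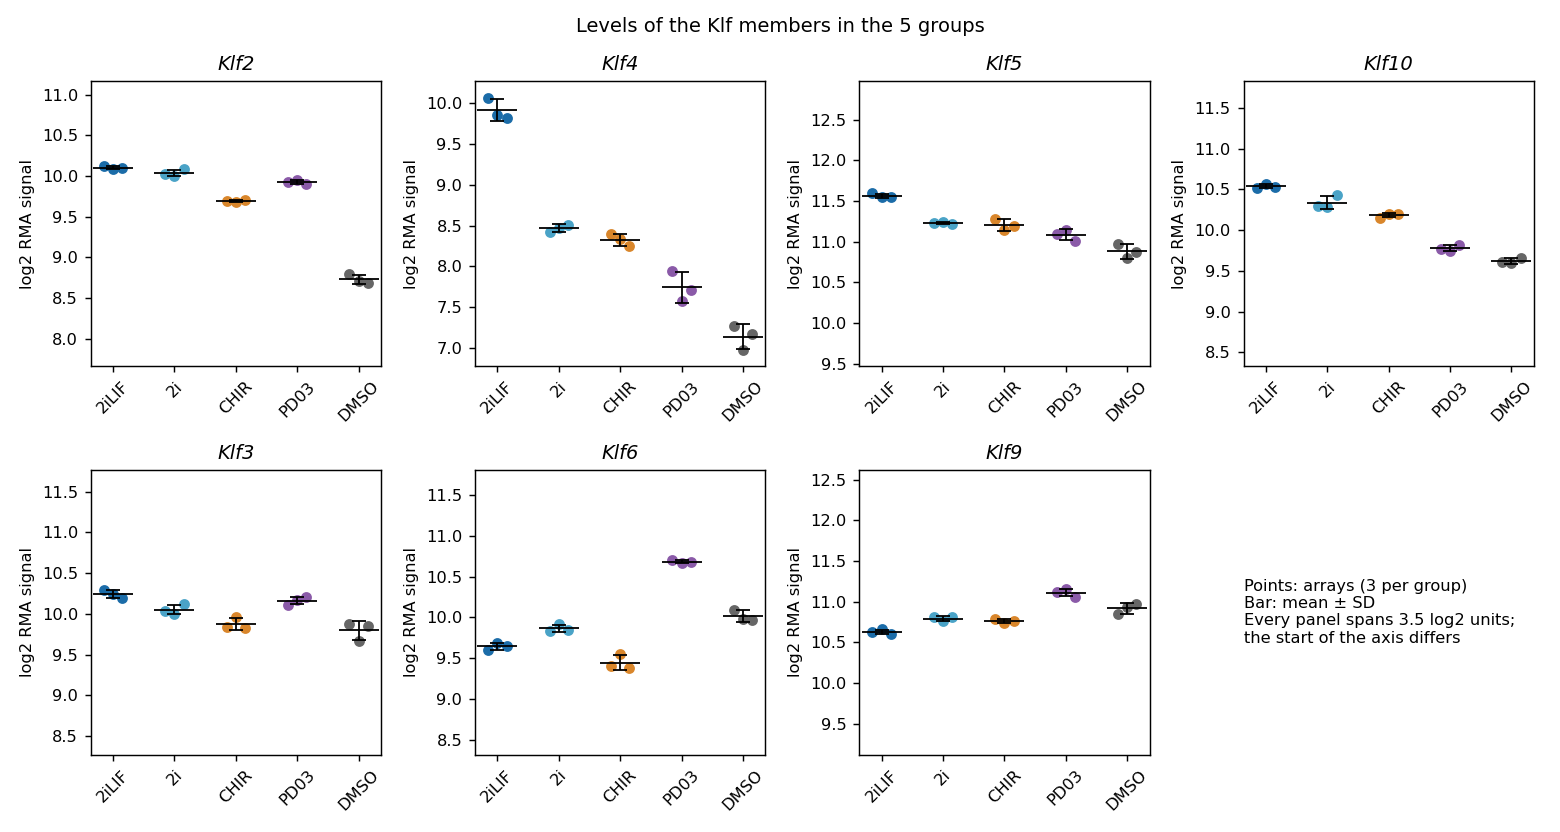
Level of each of the 7 genes (log2 RMA signal, vertical axis) in the 5 groups, with a point per array and a bar for the mean ± SD of 3 arrays; every panel spans the same number of log2 units. Klf2, Klf4, Klf5, Klf10 and Klf3 are lowest in DMSO and highest in 2iLIF, while Klf6 and Klf9 are highest in PD03.

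Klf2 was high wherever at least 1 inhibitor was present and low in DMSO. Its 3 arrays read 8.79, 8.71 and 8.69 in DMSO, 9.70, 9.67 and 9.70 in CHIR, and 9.93, 9.96 and 9.90 in PD03. They read 10.02, 10.01 and 10.08 in 2i and 10.12, 10.09 and 10.09 in 2iLIF. No array of any group overlapped with those of another group. Klf2 rose by 0.96 ± 0.04 in CHIR minus DMSO (1.95-fold, limma adjusted p = 4.03e-11) and by 1.20 ± 0.04 in PD03 minus DMSO (2.29-fold, adjusted p = 5.13e-12). The order of its means was 2iLIF, 2i, PD03, CHIR and DMSO, and each neighbouring pair passed except the first. LIF made a difference of 0.07 ± 0.04 (95% confidence interval -0.01 to 0.14, adjusted p = 0.311). The step from PD03 to 2i was 0.11 ± 0.04 (adjusted p = 0.047), a call that was lost when any 1 of the 3 2i or 3 PD03 arrays was left out (adjusted p from 0.0579 to 0.178).

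Klf4 had the widest range of the 7 genes, and its largest step came with LIF. Its arrays read 7.27, 6.97 and 7.17 in DMSO, 7.95, 7.57 and 7.71 in PD03, and 8.39, 8.33 and 8.24 in CHIR. They read 8.42, 8.47 and 8.51 in 2i and 10.07, 9.85 and 9.82 in 2iLIF. The groups formed a ladder without overlap, with 2i just above CHIR and 2iLIF far above both. The DMSO arrays lay close to the median signal of all probe sets. Klf4 rose by 1.45 ± 0.09 in 2iLIF minus 2i (2.72-fold, limma adjusted p = 3.04e-08). It rose by 1.19 ± 0.09 in CHIR minus DMSO and by 0.61 ± 0.09 in PD03 minus DMSO (adjusted p = 1.3e-07 and 0.000159). The full span from DMSO to 2iLIF was 2.78, or 6.86-fold, wider than in 99.9% of all genes. Of the neighbours in the order 2iLIF, 2i, CHIR, PD03 and DMSO, all pairs passed except 2i and CHIR, which differed by 0.15 ± 0.09 (95% confidence interval -0.05 to 0.34, adjusted p = 0.386).

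Klf5, which acts beside Klf2 and Klf4 in ES cells, followed the same order of groups as Klf4 with smaller steps. Its arrays ranged from 10.80 to 10.98 in DMSO, 11.01 to 11.15 in PD03, 11.15 to 11.28 in CHIR, 11.22 to 11.24 in 2i and 11.55 to 11.59 in 2iLIF. The PD03 and CHIR arrays overlapped, as did CHIR and 2i. Klf5 rose by 0.32 ± 0.05 in CHIR minus DMSO and by 0.20 ± 0.05 in PD03 minus DMSO (limma adjusted p = 0.000184 and 0.00877), and the latter call was lost without PD03 replicate 2 (adjusted p = 0.0506). It rose by 0.33 ± 0.05 in 2iLIF minus 2i (adjusted p = 0.000214). The neighbours 2i and CHIR differed by 0.02 ± 0.05 (95% confidence interval -0.08 to 0.13, adjusted p = 0.833), and PD03 minus CHIR was -0.12 ± 0.05 (adjusted p = 0.0918). That pair passed with the trended and robust spread, with array weights and with centred arrays (adjusted p = 0.0435, 0.0375 and 0.0146).

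Klf10 also had the order 2iLIF, 2i, CHIR, PD03 and DMSO, and all 4 neighbouring pairs passed. Its arrays read 9.61, 9.60 and 9.66 in DMSO, 9.77, 9.74 and 9.82 in PD03, and 10.16, 10.20 and 10.20 in CHIR. They read 10.30, 10.29 and 10.43 in 2i and 10.52, 10.57 and 10.53 in 2iLIF. The 5 groups did not overlap. The larger single step was with CHIR99021, at 0.56 ± 0.04 in CHIR minus DMSO (limma adjusted p = 6.42e-08), against 0.16 ± 0.04 in PD03 minus DMSO (adjusted p = 0.0122, lost without PD03 replicate 3 at 0.0623 and with centred arrays at 0.0671). The 2 inhibitors differed directly, with PD03 minus CHIR at -0.41 ± 0.04 (adjusted p = 1.73e-06). Klf10 rose by 0.20 ± 0.04 with LIF in 2iLIF minus 2i (adjusted p = 0.00269). Its difference of 0.15 ± 0.04 in 2i minus CHIR (adjusted p = 0.0241) was lost without 2i replicate 3 and without any 1 of the CHIR arrays (adjusted p from 0.0503 to 0.119). With the arrays centred on their medians its adjusted p was 0.168.

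Klf3 was higher in the 3 groups with PD0325901 than in DMSO. Its arrays ranged from 9.66 to 9.87 in DMSO, 9.83 to 9.96 in CHIR, 10.00 to 10.12 in 2i, 10.11 to 10.20 in PD03 and 10.19 to 10.29 in 2iLIF. Ranges of neighbouring groups overlapped, except those of CHIR and 2i. Klf3 rose by 0.37 ± 0.06 in PD03 minus DMSO (limma adjusted p = 0.000211) and by 0.25 ± 0.06 in 2i minus DMSO (adjusted p = 0.00279). In CHIR minus DMSO it differed by 0.08 ± 0.06 (95% confidence interval -0.04 to 0.20, adjusted p = 0.387). No neighbouring pair in the order 2iLIF, PD03, 2i, CHIR and DMSO passed. The pair 2i and CHIR, at 0.17 ± 0.06 (adjusted p = 0.0678), passed without CHIR replicate 2 (adjusted p = 0.0415), and with all arrays under the trended and robust spread (0.0361) and array weights (0.0262). The difference with LIF was 0.19 ± 0.06 (adjusted p = 0.0339), and that call was lost without 2iLIF replicate 1 or 2 and without 2i replicate 1 or 2 (adjusted p from 0.0894 to 0.125).

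Klf6 responded to the inhibitors in opposite directions. Its arrays read 10.10, 9.98 and 9.97 in DMSO, 10.70, 10.67 and 10.68 in PD03, and 9.40, 9.56 and 9.38 in CHIR. They read 9.83, 9.92 and 9.84 in 2i and 9.60, 9.69 and 9.65 in 2iLIF. PD03 stood highest and CHIR lowest, and no groups overlapped. Klf6 rose by 0.67 ± 0.05 in PD03 minus DMSO (limma adjusted p = 9.56e-08) and fell by 0.57 ± 0.05 in CHIR minus DMSO (adjusted p = 4.66e-07). The direct difference of the single inhibitors, PD03 minus CHIR, was 1.24 ± 0.05 (2.35-fold, adjusted p = 5.49e-11). With both inhibitors Klf6 was near DMSO, at -0.15 ± 0.05 (adjusted p = 0.0331), a call lost without 2i replicate 1 or 3 and without DMSO replicate 1 (adjusted p from 0.0954 to 0.152), and with centred arrays (0.0754). It fell by 0.22 ± 0.05 in 2iLIF minus 2i (adjusted p = 0.00609), so all 4 neighbouring pairs in the order PD03, DMSO, 2i, 2iLIF and CHIR passed.

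Klf9, a gene induced by glucocorticoid and thyroid hormone in other tissues, had the same sign as Klf6 in both single-inhibitor comparisons with smaller steps. Its arrays ranged from 10.85 to 10.97 in DMSO, 11.06 to 11.15 in PD03, 10.74 to 10.79 in CHIR, 10.76 to 10.81 in 2i and 10.61 to 10.66 in 2iLIF. Only CHIR and 2i overlapped. Klf9 rose by 0.19 ± 0.04 in PD03 minus DMSO (limma adjusted p = 0.00275) and fell by 0.15 ± 0.04 in CHIR minus DMSO (adjusted p = 0.0102, and 0.0698 with the arrays centred on their medians). It fell by 0.16 ± 0.04 in 2iLIF minus 2i (adjusted p = 0.0112, and 0.0731 with centred arrays). The fall of 0.13 ± 0.04 in 2i minus DMSO (adjusted p = 0.026) was lost without 2i replicate 2 and without DMSO replicate 2 or 3 (adjusted p from 0.0782 to 0.118). The 2iLIF and CHIR means differed by -0.14 ± 0.04 (adjusted p = 0.0194), which was lost without 2iLIF replicate 1 or 3 and without CHIR replicate 1 or 3 (adjusted p from 0.0503 to 0.0683).

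**Figure D2:**
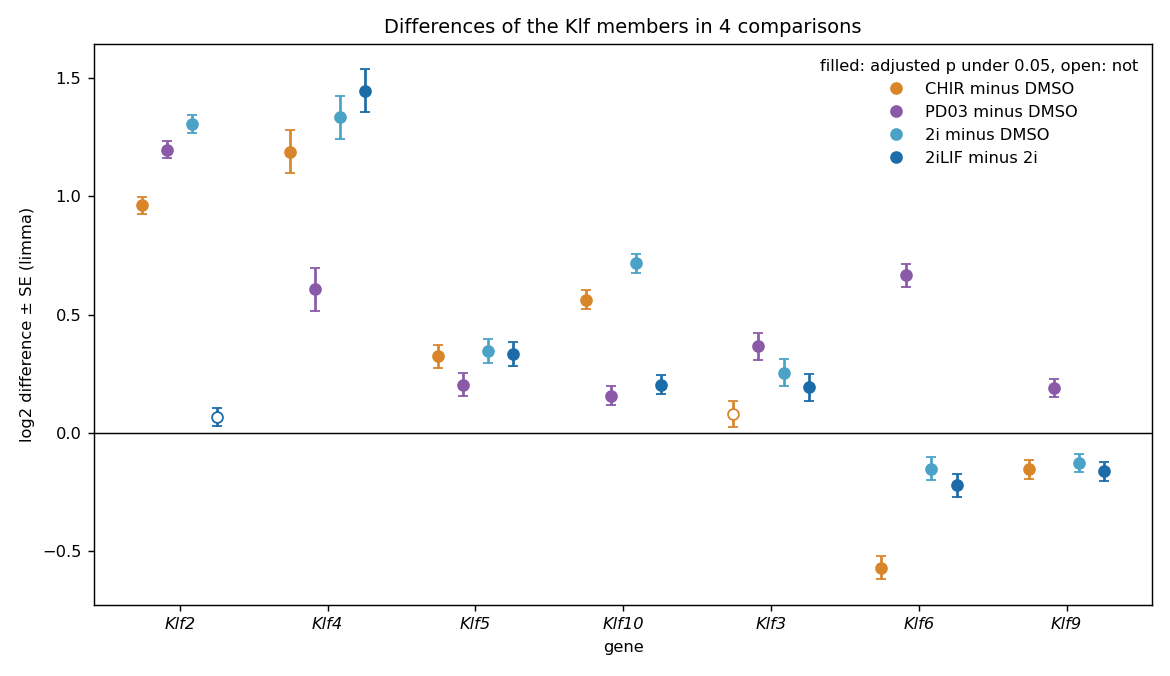
Log2 difference (vertical axis, ± SE from limma) of each of the 7 genes in 4 comparisons; filled points passed at an adjusted p under 0.05 and open points did not. Klf2 stands at 0.96 and 1.20 with the single inhibitors and 0.07 with LIF, while Klf4 stands at 1.19, 0.61 and 1.45, and Klf6 at -0.57 with CHIR99021 and 0.67 with PD0325901.

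The single inhibitors and their pair were each compared with DMSO. In CHIR minus DMSO 4 rose (Klf2, Klf4, Klf5 and Klf10) and 2 fell (Klf6 and Klf9), where 10.0% of all genes were higher and 10.8% lower. In PD03 minus DMSO all 7 were higher, where 8.67% of all genes were higher and 8.15% lower, and without PD03 replicate 2 or 3 the count was 6. In 2i minus DMSO 5 rose and 2 (Klf6 and Klf9) fell, against 13.6% and 11.9% of all genes, and the count that passed was 6 whichever of the 2i or DMSO arrays was left out. These comparisons share the DMSO arrays. The medians over the 7 genes were 0.32, 0.37 and 0.35, and over all genes -0.01, 0.00 and 0.02.

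Fewer of the 7 passed between 2i, which kept PD0325901 beside CHIR99021, and CHIR, which lost it. Fewer of all genes passed there too. In 2i minus CHIR, Klf2 (0.34 ± 0.04), Klf6 (0.42 ± 0.05) and Klf10 (0.15 ± 0.04) were higher and none was lower by limma (0 lower also at an unadjusted p under 0.05), against 5.70% higher and 3.76% lower of all genes. With CHIR99021 kept against lost beside PD0325901, in 2i minus PD03, 3 were higher and 2 lower, against 10.1% and 9.44%. Klf4 rose by 0.73 ± 0.09 there and Klf10 by 0.56 ± 0.04, and Klf6 fell by 0.82 ± 0.05 and Klf9 by 0.32 ± 0.04. Klf5, at 0.14 ± 0.05, missed the threshold (limma adjusted p = 0.0552), and passed in 6 alternative fits that kept all arrays of both groups and in the fit without PD03 replicate 2 (adjusted p = 0.043).

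Between the single inhibitors, PD03 minus CHIR, Klf2, Klf3, Klf6 and Klf9 were higher and Klf4 and Klf10 lower, against 13.2% higher and 12.6% lower of all genes. Klf2 was at 0.24 ± 0.04, Klf4 at -0.58 ± 0.09 and Klf10 at -0.41 ± 0.04. With LIF beside both inhibitors, in 2iLIF minus 2i, Klf3, Klf4, Klf5 and Klf10 were higher and Klf6 and Klf9 lower, against 4.56% higher and 7.66% lower of all genes. In the complete medium against full withdrawal, 2iLIF minus DMSO, 5 were higher and 2 lower, against 16.7% and 18.0%. In 2iLIF minus CHIR 6 were higher and Klf9 lower, against 10.7% and 12.3%. In 2iLIF minus PD03 4 were higher and Klf6 and Klf9 lower, against 15.4% and 16.3%.

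Centring the arrays on their medians changed the balance of calls over all genes. The share of called genes that were higher went from 48.2% to 62.9% in CHIR minus DMSO, from 60.3% to 43.4% in 2i minus CHIR, from 37.3% to 54.2% in 2iLIF minus 2i, from 51.2% to 31.4% in PD03 minus CHIR, from 48.2% to 60.4% in 2iLIF minus DMSO, from 48.7% to 66.2% in 2iLIF minus PD03, from 51.6% to 43.5% in PD03 minus DMSO, from 51.6% to 61.1% in 2i minus PD03 and from 45.8% to 35.6% in the interaction. The signs of the 7 genes were kept, except for 2 that had not passed in 2i minus CHIR.

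The interaction of the inhibitors asks whether one acts differently in the presence of the other, and is (2i minus PD03) minus (CHIR minus DMSO). Klf2 was the gene of the 7 that passed, where 0.933% of all genes passed with a positive and 1.10% with a negative interaction. Klf2 was higher with CHIR99021 by 0.96 without PD0325901 and by 0.11 with it, an interaction of -0.85 ± 0.05 (limma adjusted p = 8.46e-07). The single differences of Klf2 sum to 2.16, while both inhibitors together gave 1.31. On the linear scale its mean signals were 425 in DMSO, 827 in CHIR, 973 in PD03 and 1050 in 2i, where adding the single increases would give 1376. That linear value is a description with no test.

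The other interactions were -0.46 ± 0.13 for Klf4, -0.25 ± 0.07 for Klf6, -0.19 ± 0.08 for Klf3, -0.18 ± 0.07 for Klf5, -0.16 ± 0.06 for Klf9 and -0.00 ± 0.06 for Klf10. None of these 6 passed by limma, with adjusted p from 0.0889 for Klf4 to 0.989 for Klf10. While 5 had an unadjusted p under 0.05, the share of all genes at that threshold is not given here. Nothing is therefore read from that count. Klf4 passed without PD03 replicate 2 (adjusted p = 0.0407), and Klf6 without DMSO replicate 1 (adjusted p = 0.043). For Klf10 both inhibitors gave 0.72 and the single differences also sum to 0.72, with a 95% confidence interval of the interaction from -0.13 to 0.12.

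**Figure D3:**
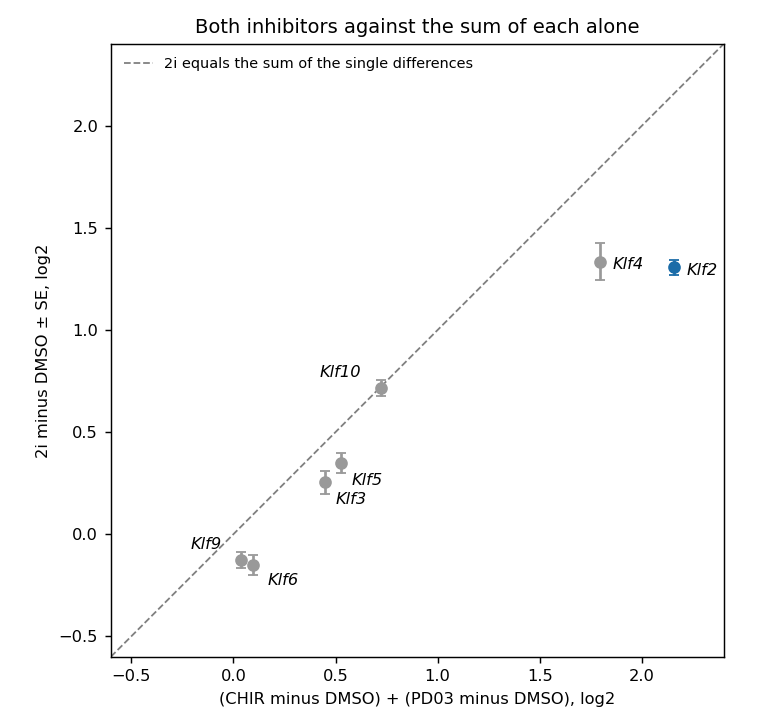
Log2 difference with both inhibitors (2i minus DMSO, vertical axis, ± SE) against the sum of the differences with each alone (horizontal axis), a point per gene; the dashed line marks equality and the blue point is the gene whose interaction passed. Klf2 lies at a sum of 2.16 and an observed 1.31, and Klf10 lies on the line at 0.72.

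Of 10 other Klf genes measured, 2 rose and 1 fell in CHIR minus DMSO, where 10.0% of all genes were higher and 10.8% lower. The counts were the same in PD03 minus DMSO (8.67% and 8.15% of all genes) and in 2i minus DMSO (13.6% and 11.9%). In 2iLIF minus 2i, 2 rose and 2 fell (4.56% and 7.66% of all genes). Their median differences were -0.04, 0.02, -0.03 and -0.03 in that order, and over all genes -0.01, 0.00, 0.02 and -0.01. Klf8, a CtBP-binding repressor, had group means of 8.84 in DMSO, 9.51 in CHIR, 9.71 in PD03, 9.91 in 2i and 10.21 in 2iLIF. It rose by 0.67 ± 0.07 in CHIR minus DMSO and by 0.86 ± 0.07 in PD03 minus DMSO, with an interaction of -0.46 ± 0.10 (limma adjusted p = 0.0224). Klf7, known for its role in neurons, had means of 9.57 in DMSO, 8.71 in CHIR, 9.87 in PD03, 8.96 in 2i and 8.69 in 2iLIF. Like Klf6 it fell with CHIR99021 (-0.86 ± 0.06 in CHIR minus DMSO) and rose with PD0325901 (0.30 ± 0.06 in PD03 minus DMSO).

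Klf12, a repressor of the AP-2alpha gene, rose by 0.27 ± 0.06 in CHIR minus DMSO and fell by 0.38 ± 0.06 in 2iLIF minus 2i. Klf15, a regulator of metabolism in liver and muscle, fell by 0.20 ± 0.05 in PD03 minus DMSO and rose by 0.22 ± 0.05 in 2iLIF minus 2i. Klf14, Klf16 and Klf17 passed in none of the 11 comparisons with limma, nor at an unadjusted p under 0.05 (0 of 33 values), and the means of Klf17 lay between 5.63 and 5.74, in the low range of the arrays. Klf1 and Klf13 passed in 2i minus PD03 at 0.19 ± 0.06 and -0.15 ± 0.05, and Klf11, which like Klf10 answers TGF-beta, fell by 0.20 ± 0.04 in 2iLIF minus PD03.

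Of 8 measured Sp genes, the closest relatives of the Klf genes, Sp5 and Sp8 rose and Sp1 fell in CHIR minus DMSO (10.0% of all genes higher, 10.8% lower), with a median of -0.02. None passed by limma in PD03 minus DMSO (8.67% and 8.15% of all genes), where 1 had an unadjusted p under 0.05 and the median was -0.06. The means of Sp8 lay low, from 5.86 to 6.36. Sp5, a known Wnt target, rose by 0.54 ± 0.07 in CHIR minus DMSO and by 0.45 ± 0.07 in 2iLIF minus 2i. Sp3, Sp7 and Sp9 passed in none of the 11 comparisons with limma, nor at an unadjusted p under 0.05.

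**Figure D4:**
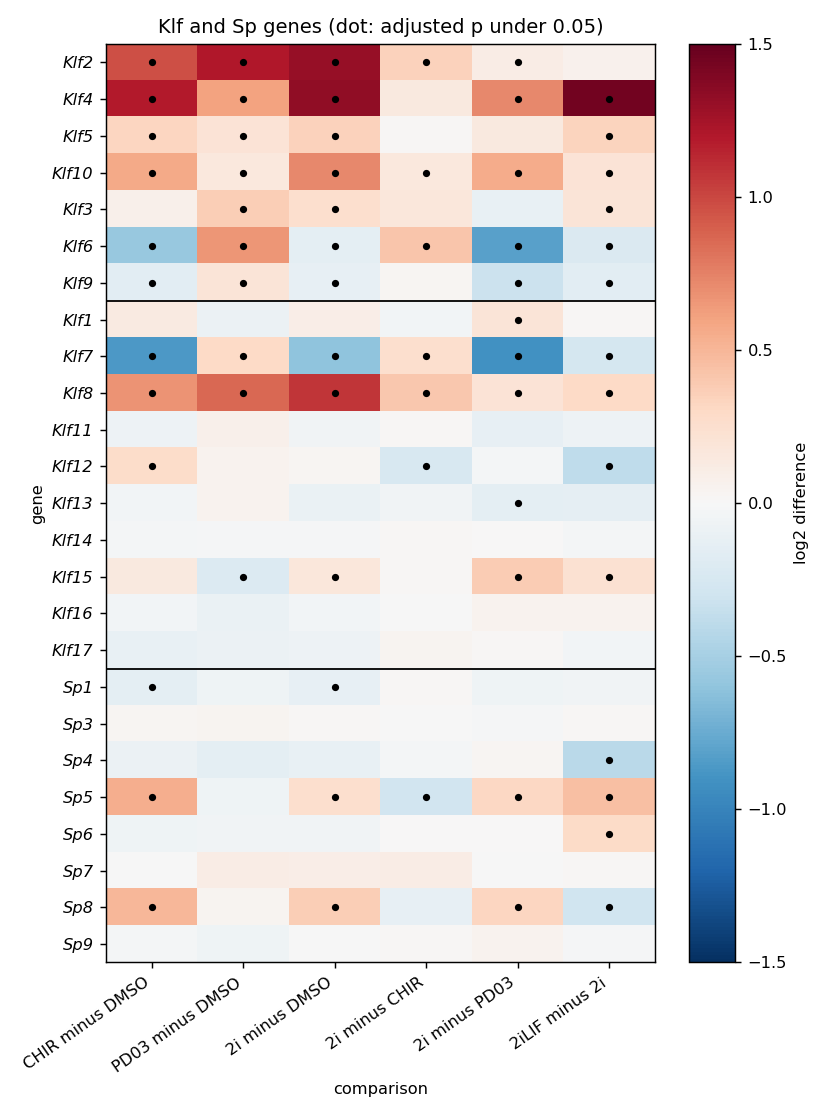
Log2 difference (colour, scale at the right) of the 7 genes, 10 other Klf genes and 8 Sp genes (rows, separated by lines) in 6 comparisons (columns); a black dot marks an adjusted p under 0.05. Klf8 is at 0.67 and 0.86 with the single inhibitors, as Klf2 is at 0.96 and 1.20, and Klf7 has the signs of Klf6.

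Genes whose proteins bind, modify or degrade Klf proteins were described as a list. Of 12 measured, 1 rose and 4 fell in CHIR minus DMSO, where 10.0% of all genes were higher and 10.8% lower. In PD03 minus DMSO 3 rose and 2 fell (8.67% and 8.15% of all genes), and in 2iLIF minus 2i 1 rose and 4 fell (4.56% and 7.66%). The medians were -0.04, 0.00 and -0.08. Ctbp2, the corepressor of Klf3 and Klf8, fell by 0.24 ± 0.04 in CHIR minus DMSO, by 0.23 ± 0.04 in PD03 minus DMSO and by 0.22 ± 0.04 in 2iLIF minus 2i. Ctbp1 differed by -0.01 ± 0.04 in both CHIR minus DMSO and PD03 minus DMSO, and fell by 0.14 ± 0.04 in 2iLIF minus 2i. Sin3a, the partner of Klf9 and Klf10, fell by 0.14 ± 0.03 in PD03 minus DMSO, where Sin3b rose by 0.27 ± 0.04. Fbxw7, a ubiquitin ligase subunit that targets Klf2 and Klf5, rose by 0.20 ± 0.04 in CHIR minus DMSO, and Wwp1, a ligase of the same proteins, by 0.14 ± 0.04 in PD03 minus DMSO. Smurf1, a ligase of Klf2, fell by 0.17 ± 0.04 in CHIR minus DMSO.

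Of the 5 genes of the LIF path, Stat3 and Socs3 rose in 2iLIF minus 2i, against 4.56% of all genes higher and 7.66% lower, and Stat3 rose there by 0.71 ± 0.05. Il6st, the shared receptor chain gp130, rose by 0.63 ± 0.05 in CHIR minus DMSO and by 0.38 ± 0.05 in PD03 minus DMSO. Lifr, on the same list, fell by 0.14 ± 0.04 in CHIR minus DMSO and rose by 0.18 ± 0.04 in PD03 minus DMSO. Of 10 naive pluripotency genes, 9 rose and Fbxo15 fell in CHIR minus DMSO, where 10.0% of all genes were higher and 10.8% lower. In PD03 minus DMSO 9 rose (8.67% of all genes higher), and in 2iLIF minus 2i 5 rose (4.56% higher). The medians were 0.78, 0.59 and 0.21. Their interaction passed with a negative sign for Nanog, Tcl1, Prdm14 and Zfp42, 4 of 10 where 1.10% of all genes did so, and was -0.57 ± 0.06 for Nanog and -0.99 ± 0.07 for Prdm14.

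The genes with the most similar pattern were found by Pearson correlation of log2 values over the 15 arrays, among 1985 other genes whose group means span at least 0.5. These arrays fall into 5 groups, so r mostly reflects the group means, and it is given as a description. Nanog was nearest to Klf2 (r = 0.994), with means of 12.72, 12.69, 12.44, 12.56 and 11.74 in 2iLIF, 2i, CHIR, PD03 and DMSO, followed by Cobl and Tnfrsf21 (both 0.983). Eomes was nearest to Klf4 (0.984), followed by Acsbg3 (0.979) and Dpp7 (0.978). Serpinb9b (0.971), Tfcp2l1 (0.968) and Eomes (0.967) were nearest to Klf5.

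Leprot (0.963), Chmp4c and Myof (both 0.951) were nearest to Klf3, and Tigar (0.989), Slc30a2 (0.985) and Naa40 (0.984) to Klf10. Cited2 (0.98), Notch1 (0.973) and Sox21 (0.971) were nearest to Klf6, all with their highest mean in PD03. D17H6S56E-5 (0.984), Ddr2 (0.981) and Enah (0.979) were nearest to Klf9.

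Markers of other cell types moved with some of these results. Of 5 trophoblast markers, Eomes and Tfap2c rose in 2iLIF minus 2i, as Klf3, Klf4, Klf5 and Klf10 did. The other 3 did not pass (4.56% of all genes higher and 7.66% lower). In CHIR minus DMSO Eomes (0.80 ± 0.10), Tfap2c (0.49 ± 0.08) and Cdx2 (0.20 ± 0.07) rose (10.0% of all genes higher, 10.8% lower). Eomes (0.36 ± 0.10) and Tfap2c (0.34 ± 0.08) rose in PD03 minus DMSO (8.67% and 8.15% of all genes). Klf2, Klf4, Klf5 and Klf10 also rose in both comparisons. The mean of that list per array was 7.31 to 7.34 in 2iLIF, 6.95 to 6.99 in 2i, 6.84 to 6.90 in CHIR, 6.71 to 6.75 in PD03 and 6.52 to 6.68 in DMSO. The group means of its members ran from 5.63 to 5.71 for Elf5, from 5.89 to 6.09 for Cdx2 and from 6.68 to 6.79 for Hand1. Wider ranges were those of Tfap2c, from 6.87 in DMSO to 8.83 in 2iLIF, and of Eomes, from 7.79 to 9.59. Of 5 neural progenitor markers, Pax6, Tubb3 and Nes rose in PD03 minus DMSO, where all 7 Klf genes rose (8.67% of all genes higher, 8.15% lower). Sox1 was lower there (-0.15 ± 0.07, limma adjusted p = 0.163) and Neurog2 differed by 0.07 ± 0.05 (adjusted p = 0.361), and neither passed. Sox1, Pax6 and Nes fell in CHIR minus DMSO (10.0% of all genes higher, 10.8% lower). The neural list had array means of 8.11 to 8.15 in PD03, 7.73 to 7.78 in DMSO, 7.60 to 7.71 in 2i, 7.56 to 7.65 in 2iLIF and 7.46 to 7.47 in CHIR. The part of such cells in the Klf results was not tested. In these bulk samples, fewer cells with a transcript and less transcript per cell cannot be told apart.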

How the data were processed

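Expression was measured on 15 arrays, 3 in each of 5 groups taken from the sample titles. The authors deposited log2 values per probe set made with RMA, per the submitters' processing notes. The version and genome build are not given in the sources used here. RMA in its usual form draws all arrays to one distribution, so a change common to most transcripts is removed, and it understates folds of weak signals. The table held 34760 probe sets: 21640 had exactly 1 gene symbol in the platform annotation, 1321 had several and 11799 were unnamed. For genes with several probe sets the one with the highest mean was used, which gave 19937 genes.

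All arrays were fitted in one linear model of the 5 groups with limma 3.58.1 (lmFit, eBayes, R 4.3.3), with Benjamini-Hochberg adjustment over all genes of each of 11 comparisons and a threshold of 0.05. Tests are two-sided. The fit had 10 residual and 5.09 prior degrees of freedom, and the median standard error of a difference was 0.0509. The number of arrays limits the precision. The procedure was tested on simulated data. The members and lists were chosen with earlier results of these data known. Named genes were the 7 members, members of 5 lists that passed or were needed to account for the list, 3 pathway checks, cell type markers, and the 3 genes most like each member. Sequences are from RefSeq, GRCm38.p6, read by symbol. No label says that a replicate number marks a shared culture or day, so the numbers were not used as pairs. Deviations of arrays with the same number from their group means had a median correlation of -0.01 over 30 pairs (from -0.364 to 0.341). The alternatives were a replicate block, a filter on low values (a mean of at least 6 in 1 group or more), a trended and robust spread, array weights, median centring, the mean of probe sets, only the groups compared, and each array left out.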

Additional observations from a re-analysis of the deposited data

Results flagged for a closer look

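The effect of each inhibitor on Klf2 differed with and without the other, by -0.85 ± 0.05 on the log2 scale (limma adjusted p = 8.46e-07). Klf2 was higher with CHIR99021 by 0.96 in the absence of PD0325901 and by 0.11 in its presence. The group means were 9.69 in CHIR, 9.93 in PD03 and 10.04 in 2i against 8.73 in DMSO. The single differences sum to 2.16, and the difference with both inhibitors was 1.31.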

How the results depend on the processing

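The differences of the 7 genes were recomputed in 539 alternative values that kept all arrays of the groups compared and in 504 with 1 array left out. Of these 514 and 474 stayed on the same side of the threshold, 12 and 26 lost a call, 13 and 4 gained one, and 0 reversed a call. Direction was checked only for values that had passed in the main fit. The differences themselves cannot change with the replicate block, low-value filter, trended and robust spread or only the groups compared. Nor can they with the mean of probe sets, as each of the 7 genes had 1. A reversal could therefore occur only with array weights, median centring or an array left out. The number of the 7 genes with an interaction, 1 in the main fit, was 2 with the replicate block (a paired analysis) and 2 with the trended and robust spread, as Klf4 also passed (adjusted p = 0.0378 and 0.0485). It ranged from 1 to 2 when 1 array was left out, with 2 without PD03 replicate 2 and without DMSO replicate 1. The count of all genes with an interaction, 406, ranged from 255 to 437 with 1 array left out, with 255 without PD03 replicate 3 and 269 without PD03 replicate 1. The replicate block also took the calls of Klf2 in 2i minus PD03 (0.0642) and Klf3 in 2iLIF minus 2i (0.0534), and added that of Klf5 in 2i minus PD03 (0.0466). With only the groups compared in the fit, Klf6 and Klf9 in 2i minus DMSO, Klf9 in CHIR minus DMSO, Klf10 in 2i minus CHIR and Klf2 in 2i minus PD03 lost their calls (0.0642, 0.092, 0.0534, 0.083 and 0.0773), where fewer arrays estimate the spread. Apart from that construction, the cause of these changes was not tested. No detection calls were used, so how far the signal of Klf4 in DMSO, near the array median, stands above background is not known here.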
